A study of Mus musculus with 8 samples.

Results

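The genes described here are 10 regulators and markers of the epithelial-mesenchymal transition (EMT), measured in whole mouse lung with and without an induced TGF-β1 transgene. They are the cell adhesion genes Cdh1, Cdh2 and Epcam, the mesenchymal proteins Vim and S100a4, and the transcription factors Snai1, Snai2, Twist1, Zeb1 and Zeb2. Members were found by the gene symbol that the deposited array table gives each probe, which matched 13 of 39341 probes. Together these probes stand for 10 of the 25734 genes on the array, and 9 of the 10 had enough values for a test.

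RNA came from the lungs of 4 wild-type (WT) mice and 4 TGFb1-Tg mice, which carry an inducible transgene for active human TGF-β1. The labels put all of them on the B6J background at 10 weeks of age, and the promoter that drives the transgene is not given in the sources used here. Doxycycline at 1 mg/ml in the drinking water induces the transgene. The labels give harvests from 2 to 14 days for the study, and the table's headers give 14 days for every sample. The labels call the WT lungs controls, and the headers put them on water, so under the headers doxycycline and the induced transgene cannot be told apart. Each lung, labelled with Cy5, was hybridised to a 2-colour array together with a pooled control, labelled with Cy3. By the labels, that control was the WT replicates combined, on every array. By the headers, WT lungs were set against pooled WT lungs (n = 4) and TGFb1-Tg lungs against pooled transgenic lungs (n = 4), both pools kept on water.

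The pools were not the same RNA. Xist, a transcript of the inactive X chromosome, had a pool intensity of 1.04 to 1.13 beside WT lungs and of 0.01 to 0.02 beside TGFb1-Tg lungs. WT replicate 1 stood apart from the other samples, with a Xist intensity of 4.6 against 0.01 to 0.04 and a Ddx3y intensity of 0.04 against 6.83 to 10.35 on the brighter probe of that Y-linked gene. Without the array of WT replicate 1 all 9 tested members kept their call in the ratio fit, and the largest move was that of Cdh2, from -0.47 to -0.54. The pool beside the remaining WT lungs still held Xist. Where the WT pool includes that lung, its RNA stays in the other WT ratios, so this fit cannot show the ratios without it. If the headers are right, the WT pool holds the WT lungs themselves, so WT ratios lie near 0 by construction, and a group difference sets induced transgenic lung against uninduced transgenic lung. Mouse Tgfb1 had a mean log2 ratio of 1.07 ± 0.12 in TGFb1-Tg and 0.03 ± 0.12 in WT (SD, n = 4 each), with p = 0.0286 in the exact two-sided permutation test, the smallest p that 4 against 4 arrays allow. The lung regulator Nkx2-1 and the surfactant-processing protease Napsa had mean sample intensities of 10.1 and 10.7, so lung epithelial RNA was present. In whole lung, fewer cells of a type and less RNA per cell cannot be told apart.

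EMT is the process by which epithelial cells loosen their contacts and take up a mesenchymal shape and motility. Cadherins hold neighbouring cells together through their extracellular repeats, and an exchange of E-cadherin for N-cadherin is a common sign of the process. TGF-β signals through SMAD proteins to the SNAI, TWIST and ZEB transcription factors, and SNAI and ZEB proteins bind the E-box CACCTG in promoters of epithelial genes such as Cdh1 and repress them. In lung fibrosis, how far epithelial cells pass through this transition has long been debated.

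The promoters of Epcam and S100a4 are shown because these genes, an epithelial and a mesenchymal marker, had the largest rises among the members, and because their sequences differ in the E-box. The windows hold the 250 bases before the annotated start, from RefSeq on GRCm38.p6, 5′ to 3′ on the plus strand, with CACCTG or its reverse complement CAGGTG in capitals. Epcam lies at chr17:87635729-87635978 and S100a4 at chr3:90603520-90603769.
Epcam: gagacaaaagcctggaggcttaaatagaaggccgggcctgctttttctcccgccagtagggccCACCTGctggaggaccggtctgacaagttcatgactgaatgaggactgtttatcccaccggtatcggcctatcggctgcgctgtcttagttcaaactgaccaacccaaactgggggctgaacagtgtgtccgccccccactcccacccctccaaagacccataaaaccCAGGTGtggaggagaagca
S100a4: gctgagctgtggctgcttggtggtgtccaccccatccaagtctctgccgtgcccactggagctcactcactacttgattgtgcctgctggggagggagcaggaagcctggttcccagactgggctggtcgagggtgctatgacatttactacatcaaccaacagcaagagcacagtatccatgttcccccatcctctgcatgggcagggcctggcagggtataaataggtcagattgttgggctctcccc
The Epcam window held 2 E-boxes, starting 187 bases before the start on the plus strand and 19 bases before it on the minus strand. The S100a4 window held none. On either strand, 17.2% of the 32851 promoter windows of this length in the table held an E-box. The short SMAD box CAGAC, or GTCTG on the other strand, occurred once each in the windows of Epcam, S100a4 and Twist1, and 42.2% of all windows held it. Snai1 held 1 E-box, 126 bases before its start, and the windows of Vim, Zeb2 and Twist1 held none. The table matched 6 of the 10 members; Cdh1, Cdh2, Snai2 and Zeb1 are named only. These matches describe letters in a window and not sites of binding.

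Both epithelial adhesion genes and S100a4 rose in TGFb1-Tg lungs, Snai2 rose beside them, and Zeb1 and Cdh2 fell in ratio to the pool. Twist1 was also called higher in ratio, with a mean sample intensity of 0.085 in both groups and a dimmer pool beside the induced lungs. Of the 9 members tested, 5 were called higher, 2 were called lower and 2, Snai1 and Zeb2, were not called, at an adjusted p under 0.05 by limma over all 25647 genes tested. In the same fit 38.8% of all genes were called, 19% higher and 19.8% lower. The ratios of the groups did not overlap for 7 of the 9 members, against 37.2% of all genes, 18.2% with TGFb1-Tg above and 19% with TGFb1-Tg below. The median log2 difference of the members was 0.20, against 0.00 over all genes. When sample intensities were compared with no pool and quantile normalized between arrays, 4 members were called higher and 1 lower, beside 20.6% and 13.2% of all genes (33.9% in either direction). With the sample channel only centred on each array's median, 6 members were called higher and 0 lower, beside 48.6% of all genes in either direction, and 5 of the 9 did not overlap, beside 45.2% of all genes. When the ratios were quantile normalized, 1 member was called higher and 1 lower, beside 6.25% and 5.76% of all genes (12% in either direction). That scaling gives every array the same spread of ratios. Before it, the SD of the log2 ratios was 0.135 to 0.16 on WT arrays and 0.387 to 0.406 on TGFb1-Tg arrays. It therefore widens WT ratios and narrows TGFb1-Tg ratios, and a call lost there does not by itself show a weak difference.

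**Figure D1:**
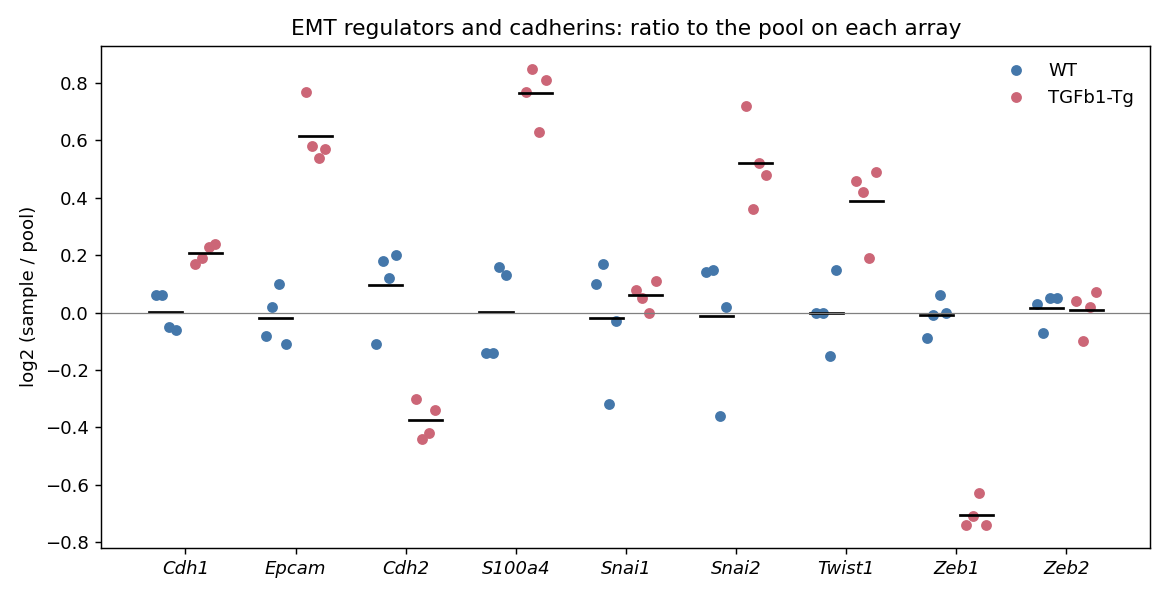
Log2 ratio of sample to pool (y axis) for the 9 tested members (x axis), with 1 point per array and the mean of each group as a line. TGFb1-Tg arrays lie above the WT arrays for Cdh1, Epcam, S100a4, Snai2 and Twist1, below them for Cdh2 and Zeb1, and among them for Snai1 and Zeb2.

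Cdh1 encodes E-cadherin, the cadherin of epithelial adherens junctions. Its sample intensity was 16.05, 14.41, 12.08 and 13.11 in WT replicates 1 to 4 and 20.1, 20.56, 20.55 and 21.28 in TGFb1-Tg replicates 1 to 4. All 4 induced lungs lay above all 4 WT lungs. The pool also differed, with 12.47 to 15.37 beside WT lungs and 17.51 to 17.99 beside induced lungs, so that much of the difference between samples was shared by the pools. The log2 ratios were 0.06, 0.06, -0.05 and -0.06 in WT and 0.17, 0.19, 0.23 and 0.24 in TGFb1-Tg. The difference of the ratios was 0.20 ± 0.04 (SE, n = 4 per group), a 1.15-fold rise with an adjusted p of 0.00332 (limma). It was 0.64 (adjusted p = 0.00054) between quantile-normalized samples, and 0.13 with no call (adjusted p = 0.343) when the ratios themselves were quantile normalized. On the TGFb1-Tg arrays the probe reached 84.3% to 88.45% of the highest sample intensity on its array, near the top of the measured scale.

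Epcam encodes an epithelial cell adhesion protein that marks most epithelia of the lung. Its sample intensity was 1.35, 1.33, 1.24 and 1.21 in WT and 2.78, 2.59, 2.48 and 2.37 in TGFb1-Tg. The pool intensity was 1.16 to 1.43 and 1.60 to 1.73 on the respective arrays. The groups did not overlap in samples or ratios, and the lowest induced lung, replicate 4, stood well above the brightest WT lung. The ratios ran from -0.11 to 0.10 in WT and from 0.54 to 0.77 in TGFb1-Tg. The difference was 0.63 ± 0.07 (SE, n = 4 per group; 1.55-fold) with an adjusted p of 0.000358 (limma). Epcam and Zeb1 were the members still called when the ratios were quantile normalized, and Epcam was also called in the sample channel alone, at 1.28 after median centring and 0.83 after quantile normalization. The 2 E-boxes of the printed promoter lie upstream of this gene.

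Cdh2 encodes N-cadherin, which joins cardiac muscle cells, mesothelial cells and many mesenchymal cells. On its brighter probe the sample intensity was 0.51, 0.52, 0.61 and 0.68 in WT and 0.43, 0.35, 0.47 and 0.37 in TGFb1-Tg, against pools of 0.52 to 0.62 and 0.59 to 0.65. In intensity not scaled between arrays, every induced lung lay below every WT lung on that probe. The probe's ratio difference was -0.67 ± 0.13 (SE, n = 4 per group; adjusted p = 0.0065 over probes, limma), in a fit of single probes that called 32.9% of them. The second probe was dim, with intensities of 0.02 to 0.06, and its difference of -0.27 was not called (adjusted p = 0.198). Averaged over both probes the gene's ratios were -0.11, 0.18, 0.12 and 0.20 in WT and -0.30, -0.44, -0.42 and -0.34 in TGFb1-Tg, a difference of -0.47 ± 0.07 (adjusted p = 0.00201). In the sample channel alone the difference of the gene was -0.15 after median centring (adjusted p = 0.593) and -0.18 after quantile normalization (adjusted p = 0.556), with no call in either. The gene's median-centred sample values overlapped, at -0.42 to 0.67 in WT and -0.39 to 0.15 in TGFb1-Tg.

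Cardiac muscle markers moved in the same direction as Cdh2; pulmonary veins of the mouse carry cardiac muscle. All 12 were called lower, with a median of -1.41, and the sum of their sample intensities ran from 47.1 to 60.8 in WT and from 21.5 to 24.9 in TGFb1-Tg. Nppa, the atrial natriuretic peptide, fell by 1.72, and Tnni3, the cardiac troponin I, fell by 1.65 on the log2 scale. Of 10 mesothelial markers, 6 were called lower and 1 higher in the ratios and between quantile-normalized samples, 3 and 2 in the median-centred sample channel, and 2 and 0 with the ratios quantile normalized. Their median in the ratios was -0.52, with summed intensities of 12.2 to 16.2 in WT and 11.5 to 12.8 in TGFb1-Tg. No marker of either list was at 0. Their part in the Cdh2 result was not tested.

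The cadherin pair can be read together as the Cdh1 ratio minus the Cdh2 ratio on each array. This value was 0.17, -0.12, -0.16 and -0.25 in WT and 0.47, 0.63, 0.65 and 0.58 in TGFb1-Tg. The induced lungs all lay above the WT lungs, on the side of relatively more E-cadherin than N-cadherin RNA. It is given as a description of these 8 arrays, with no test.

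Vim encodes vimentin, the intermediate filament of mesenchymal cells and leukocytes. It had 1 probe, which was measured only on the array of TGFb1-Tg replicate 3, with a sample intensity of 21.68 and a pool intensity of 20.74. The log2 ratio there was 0.06, and the sample reached 89.7% of the highest sample intensity on that array. Vim was therefore not tested, and no group difference can be given for it. Missing values gathered at the bright end of the scale: 44.4% of the 718 probes with a missing value reached an intensity over 20, against 0.585% of the complete probes.

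S100a4 encodes a small calcium-binding protein, also called fibroblast-specific protein, that is made by fibroblasts and by macrophages. Its sample intensity was 2.20, 2.33, 2.78 and 2.73 in WT and 5.33, 5.83, 4.82 and 5.33 in TGFb1-Tg. The pool intensity was 2.43 to 2.56 and 3.05 to 3.23. Induced and WT lungs were far apart in the sample channel, and the pools differed by much less. The ratios were -0.14, -0.14, 0.16 and 0.13 in WT and 0.77, 0.85, 0.63 and 0.81 in TGFb1-Tg. The difference of 0.76 ± 0.09 (SE, n = 4 per group; 1.69-fold) had an adjusted p of 0.000573 (limma) and was the largest rise among the members. It was 0.91 between quantile-normalized samples (adjusted p = 0.000512), and 0.47 with no call when the ratios were quantile normalized (adjusted p = 0.14).

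Macrophage and monocyte markers moved in the same direction as S100a4. All 13 of those tested were called higher in the ratios, with a median of 0.79. Between quantile-normalized samples 11 were called higher and 0 lower, and in the median-centred sample channel 13 and 0. Their summed sample intensity ran from 34.2 to 37.2 in WT and from 61.9 to 67.1 in TGFb1-Tg. Trem2, a lipid receptor of macrophages, rose by 2.09 ± 0.05 and Cd68, a lysosomal glycoprotein of macrophages, by 1.25 ± 0.08. Fibroblast markers moved in a way that depended on the scaling. Of 14 tested, 6 were called higher and 5 lower in the ratios, 4 and 4 between quantile-normalized samples, 8 and 1 in the median-centred sample channel, and 1 and 1 with the ratios quantile normalized. Their median in the ratios was 0.19, with summed intensities of 118 to 130 in WT and 132 to 147 in TGFb1-Tg. Among them Cthrc1, a secreted protein of matrix-producing fibroblasts, differed by 0.78 and Col1a1, a chain of type I collagen, by 0.73, while Pdgfra, a receptor of resident fibroblasts, differed by -1.04 and Dcn, the proteoglycan decorin, by -0.96. In the median-centred sample channel Dcn differed by -0.31 and was not called (adjusted p = 0.102). No marker of either list was at 0, and the part of these cells in the S100a4 result was not tested. Over the 8 log2 ratios, the 3 genes closest to S100a4 among 16345 candidates were Fcer1g, Ptger4 and Tlr2, with root mean square differences of 0.0508, 0.0641 and 0.0726. Fcer1g encodes the gamma chain of Fc receptors, Ptger4 a prostaglandin E2 receptor and Tlr2 a receptor for bacterial lipoproteins.

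**Figure D2:**
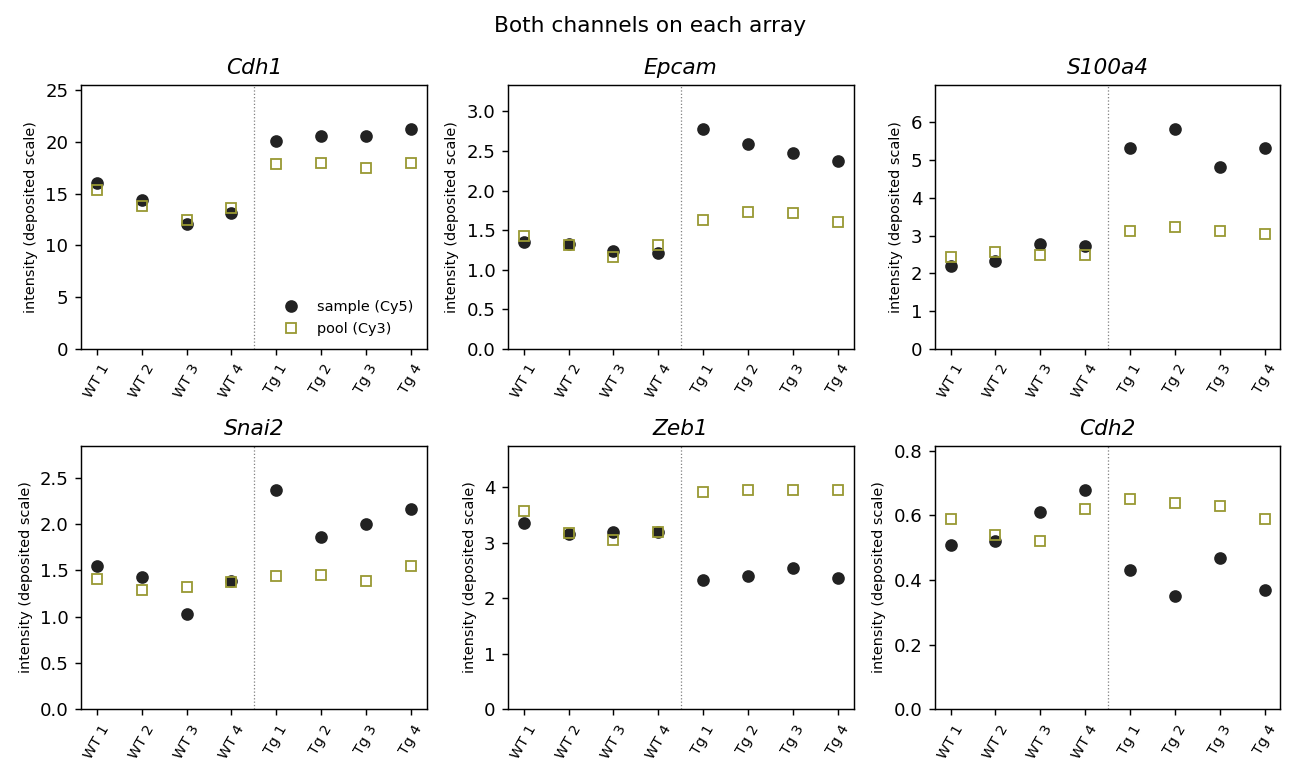
Intensity on the deposited linear scale (y axis) of the lung sample (filled circles, Cy5) and the pool (open squares, Cy3) on each of the 8 arrays (x axis; Tg is TGFb1-Tg), for 6 members, with the brighter probe of Cdh2. Induced samples lie above their pool for Epcam, S100a4 and Snai2 and below it for Zeb1 and Cdh2, and both channels of Cdh1 are higher on the TGFb1-Tg arrays.

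Among the transcription factors, Snai2 rose, Zeb1 fell in ratio to the pool, Twist1 was called higher in ratio with no rise of its sample intensity, and Snai1 and Zeb2 were not called. Snai2 encodes Slug, a zinc-finger repressor of the SNAI family. Its sample intensity was 1.55, 1.43, 1.03 and 1.39 in WT and 2.37, 1.86, 2.00 and 2.16 in TGFb1-Tg. The pools were close, at 1.29 to 1.41 and 1.39 to 1.55, and all induced lungs lay above all WT lungs. The ratios were 0.14, 0.15, -0.36 and 0.02 in WT and 0.72, 0.36, 0.52 and 0.48 in TGFb1-Tg, a difference of 0.53 ± 0.13 (SE, n = 4 per group; 1.45-fold; adjusted p = 0.0162, limma). The call was kept between quantile-normalized samples at 0.49 (adjusted p = 0.0182) and lost when the ratios were quantile normalized, at 0.35 (adjusted p = 0.451).

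Snai1 encodes Snail, the founding member of that family. Its sample intensity was 0.46, 0.53, 0.32 and 0.51 in WT and 0.55, 0.56, 0.55 and 0.53 in TGFb1-Tg. The ratios of the induced lungs, 0.08, 0.05, 0.00 and 0.11, lay within those of WT, which were 0.10, 0.17, -0.32 and -0.03. The difference was 0.08 with a 95% interval of -0.17 to 0.33 (adjusted p = 0.579, limma). The ratios cannot show a change within that interval. In the median-centred sample channel the difference was 0.58 and was called (adjusted p = 0.0256), and after quantile normalization it was 0.29 and was not (adjusted p = 0.268).

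Twist1 encodes a basic helix-loop-helix factor of mesenchymal cells. It was dim, with sample intensities of 0.08, 0.07, 0.09 and 0.10 in WT and 0.11, 0.08, 0.08 and 0.07 in TGFb1-Tg, in a table that gives these values in steps of 0.01. In the sample channel the groups overlapped, with a mean of 0.085 in each. The pool was 0.07 to 0.10 beside WT lungs and 0.05 to 0.08 beside induced lungs, so the higher ratio rests on dimmer pools and on 1 or a few rounding steps. The ratio difference was 0.39 ± 0.09 (SE, n = 4 per group; 1.31-fold; adjusted p = 0.0101, limma), and no call was made in the sample channel alone, at 0.28 after median centring (adjusted p = 0.205) and 0.42 after quantile normalization (adjusted p = 0.0775).

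Zeb1 encodes a zinc-finger homeobox repressor of epithelial genes and changed most among the factors in ratio to the pool. Its sample intensity was 3.36, 3.16, 3.20 and 3.19 in WT and 2.34, 2.41, 2.55 and 2.37 in TGFb1-Tg. The pool was 3.06 to 3.58 beside WT lungs and 3.92 to 3.96 beside induced lungs. In intensity not scaled between arrays, every induced lung lay below every WT lung and below its own pool. After median centring the sample values, relative to their mean over the arrays, overlapped. They were -0.08 to 0.18 in WT and -0.16 to 0.07 in TGFb1-Tg. The ratios ran from -0.09 to 0.06 in WT and from -0.74 to -0.63 in TGFb1-Tg, a difference of -0.70 ± 0.04 (SE, n = 4 per group; 1.62-fold lower; adjusted p = 2.75e-05, limma). It remained called when the ratios were quantile normalized, at -0.42 (adjusted p = 0.00678), and between quantile-normalized samples, at -0.60 (adjusted p = 0.000177). It was not called in the median-centred sample channel, at -0.13 (adjusted p = 0.329), where genes with a mean intensity of 1 or more had a median difference of 0.51.

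Zeb2 encodes the paralogue of Zeb1 and is also made by macrophages and other leukocytes. Averaged over 3 probes its ratios were 0.03, -0.07, 0.05 and 0.05 in WT and 0.04, -0.10, 0.02 and 0.07 in TGFb1-Tg. The groups overlapped fully, and the difference was -0.01 with a 95% interval of -0.12 to 0.10 (adjusted p = 0.928, limma). The 3 probes gave ratio differences of 0.05, -0.13 and 0.05, none of them called. The median-centred sample channel turned the direction and called the gene at 0.40 (adjusted p = 0.0309), and the quantile-normalized one gave 0.22 without a call (adjusted p = 0.145). By itself the brightest probe was called after median centring, at 0.62 (adjusted p = 0.00216 over probes, limma), and the other probes were not. Genes with a mean intensity of 1 or more had a median difference of 0.51 on that scale. The difference of Zeb1 from Zeb2 was not tested.

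The genes closest to Zeb1 over the 8 log2 ratios were 4930518I17Rik, Lfng and Eda, with root mean square differences of 0.0369, 0.0408 and 0.0424 and group differences of -0.69, -0.70 and -0.69. Lfng encodes a glycosyltransferase that modifies Notch, and Eda encodes the ligand ectodysplasin. Endothelial markers, which belong to a cell type that also makes Zeb1, moved the same way. Of 10, 8 were called lower and none higher in the ratios (4 and 1 in the median-centred sample channel), with a median of -0.63, and their summed sample intensity ran from 59.4 to 71.5 in WT and from 44.1 to 47 in TGFb1-Tg. Ednrb, an endothelin receptor, fell by 2.01 and Eng, a TGF-β co-receptor, by 1.16. No marker of the list was at 0, and its part in the Zeb1 result was not tested.

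**Figure D3:**
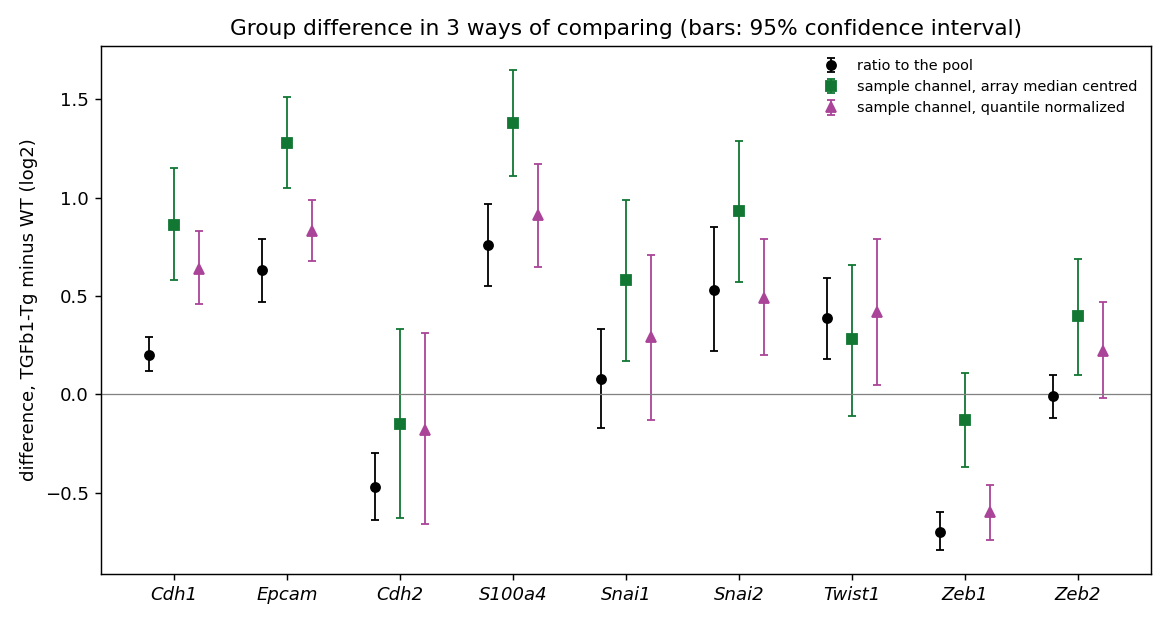
Group difference on the log2 scale, TGFb1-Tg minus WT (y axis), with its 95% confidence interval for each tested member (x axis) in 3 comparisons: ratios to the pool (circles), the sample channel centred on each array's median (squares) and the sample channel quantile normalized (triangles). Epcam, Cdh1, S100a4 and Snai2 lie above 0 in all 3; Zeb2 turns from -0.01 to 0.40 and Zeb1 from -0.70 to -0.13 with median centring.

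The scalings gave different calls, and the sets of arrays also differed in brightness. In the median-centred sample channel, where 35.3% of all genes were called higher and 13.4% lower, the median difference was 0.12 over all genes, -0.25 for genes under an intensity of 0.1 and 0.51 for genes of 1 or more. The pool channel moved by nearly as much, at 0.14, -0.28 and 0.45. Against the 0.51 of bright genes, the sample-channel differences of Cdh1 (0.86), Epcam (1.28), Snai2 (0.93) and S100a4 (1.38) lay above it and that of Zeb1 (-0.13) lay below it. Zeb2 and Snai1, called higher on that scale, differed by 0.40 and 0.58. The median was 0.20 for genes of 0.1 to 1, the range of Snai1 and, averaged over its probes, of Zeb2. Quantile normalization brought the median of bright genes to 0.07. The summed sample intensities given for gene lists were not scaled between arrays and have no pool sum beside them. Differences in brightness between the arrays are therefore part of them.

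The authors' deposited p-values, given per probe and array for the sample against its pool, are a description of single arrays. In the authors' deposited table, 10.4% of the probes complete on all arrays had p under 0.05 on all 4 TGFb1-Tg arrays. Epcam, S100a4, Snai2, Zeb1 and the brighter Cdh2 probe were among these in the authors' deposited table. Their highest p on those arrays in the authors' deposited table was 0.000691 for Epcam, 0.000134 for S100a4, 0.04 for Snai2, 0.000401 for Zeb1 and 0.02 for Cdh2. Twist1 had p under 0.05 on 3 of the 4 arrays, and Cdh1, Snai1 and every Zeb2 probe on 0 of 4, in the authors' deposited table.

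The other EMT transcription factors moved in both directions. Of 19 tested, 7 were called higher and 6 lower in the ratios, with a median of 0.01, 8 and 3 between quantile-normalized samples, and 11 and 0 in the median-centred sample channel. Over all genes the shares called higher and lower were 19% and 19.8% in the ratios. They were 20.6% and 13.2% between quantile-normalized samples, and 35.3% and 13.4% in the median-centred sample channel. These shares stand beside the counts of every list above and below. The homeobox gene Prrx2, of mesenchymal cells, rose by 1.37 ± 0.05 and Sox9, a factor of distal lung progenitors and cartilage, rose by 1.12 ± 0.08 on the log2 scale (adjusted p = 6.71e-06 and 5.98e-05, limma). Lef1, a nuclear partner of β-catenin, differed by -0.75 in the ratios and by -0.21 with no call in the median-centred sample channel (adjusted p = 0.213). Id3, an inhibitor of helix-loop-helix factors, differed by -0.47 in the ratios (adjusted p = 0.0147) and by -0.12 between quantile-normalized samples (adjusted p = 0.412).

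Of 18 regulators of the epithelial state, 8 were called higher and 2 lower in the ratios, with a median of 0.12, 5 and 1 between quantile-normalized samples, and 9 and 0 in the median-centred sample channel. Nkx2-1, the lineage factor of lung epithelium, and Elf3, an ETS factor of epithelia, both rose by 0.50; Elf3 was not called between quantile-normalized samples (0.24, adjusted p = 0.0538). Foxa1, a forkhead factor of endoderm, differed by -0.51 in the ratios (adjusted p = 0.000106) and by 0.08 with no call in the median-centred sample channel (adjusted p = 0.562). Ovol1, a zinc-finger factor that opposes Zeb1, differed by -0.20 in the ratios and by 0.17 between quantile-normalized samples, where it was not called (adjusted p = 0.191).

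Most of the other cadherins were not called. Of 20 tested, 3 were called higher and 2 lower, with a median of 0.00, beside 19% and 19.8% of all genes. The counts were 4 and 3 between quantile-normalized samples, beside 20.6% and 13.2% of all genes. In the median-centred sample channel they were 5 and 4, beside 35.3% and 13.4% of all genes. The 3 called higher were Cdh16, the kidney-type cadherin, also present in thyroid, which rose by 1.54 ± 0.15, and Cdh3 and Cdh11, which both rose by 0.50. Cdh3 encodes P-cadherin of basal epithelia and was weak, with a mean sample intensity of 0.116. Cdh11, named after its values were seen, encodes a cadherin of mesenchymal cells; its mean sample intensity was 4.17, and it was also called between quantile-normalized samples, at 0.37 (adjusted p = 0.0337). These few genes include cadherins of epithelial and of mesenchymal cells, which describes single genes and not the family. Cdh5, the cadherin of endothelial junctions, fell by 0.41, together with the endothelial list above, and the dim Cdh19 fell by 0.83. Of 17 catenins and adherens junction genes, 5 were called higher and 3 lower in the ratios, 4 and 1 between quantile-normalized samples, and 6 and 0 in the median-centred sample channel. The shares of all genes called in either direction were 38.8%, 33.9% and 48.6% in the same order. Nectin2, an adhesion receptor, rose by 0.53 and Ctnnbip1, an inhibitor of β-catenin, by 0.41. Arvcf, a catenin that binds cadherin tails, differed by -0.28 in the ratios and by 0.05 with no call in the median-centred sample channel (adjusted p = 0.756), and Vcl, which encodes vinculin, differed by -0.43 in the ratios and by -0.18 with no call between quantile-normalized samples (adjusted p = 0.0691).

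Epithelial junction and keratin genes rose with Cdh1 and Epcam, which are members of this list. Of 30 tested, 21 were called higher and 2 lower in the ratios, with a median of 0.31, and 23 were higher and 0 lower between quantile-normalized samples. Their summed sample intensity, not scaled between arrays, was 98.8 to 116 in WT and 161 to 173 in TGFb1-Tg. Cldn4, a tight junction claudin raised in injured alveolar epithelium, rose by 1.37 ± 0.09 and Krt18, a keratin of simple epithelia, by 1.09 ± 0.11 (adjusted p = 5.49e-05 and 0.00025, limma). Tjp1, which encodes the tight junction scaffold ZO-1, differed by -0.40, and Dsg2, a desmosomal cadherin, by -0.26; neither was called between quantile-normalized samples, where they differed by -0.14 and 0.08.

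Markers of the epithelial cell types moved in different directions beside these genes. Of 5 alveolar type 2 markers tested, 3 were called higher and none lower in the ratios, with a median of 0.45, and 1 was called higher between quantile-normalized samples. Their summed intensities were 30.6 to 31.6 in WT and 36 to 40.9 in TGFb1-Tg. Napsa rose by 0.64 on both scales, and Lamp3, a lysosomal membrane protein, differed by 0.53 in the ratios and by -0.08 between quantile-normalized samples, where it was not called (adjusted p = 0.641). Of 8 alveolar type 1 markers, 3 were called lower and none higher in the ratios, where 38.8% of all genes were called in either direction. Between quantile-normalized samples, however, 2 were higher and 2 lower, and in the median-centred sample channel 3 were higher and none lower. Their summed intensity was 38.8 to 58.8 in WT and 55.7 to 67.3 in TGFb1-Tg. Of 7 airway epithelial markers tested, 5 were called lower and none higher, with a median of -0.67, and their summed intensity was 16.5 to 25 in WT and 9.68 to 10.4 in TGFb1-Tg. No marker of these lists was at 0. Sftpc and Scgb1a1 were not tested for want of values. The part of these cell types in the Cdh1 and Epcam results was not tested.

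In the families of Vim and S100a4 genes moved both ways in the ratios, where 38.8% of all genes were called in either direction. Of 12 other intermediate filament genes, 3 were called higher and 3 lower, and 3 and 2 in either scaling of the sample channel. The lamins Lmnb1 and Lmnb2, of the nuclear envelope, rose by 1.12 and 0.92, and the muscle filaments Synm (synemin) and Des (desmin) fell by 1.28 and 0.78. Of 12 other S100 genes, 3 were called higher and 3 lower in the ratios, with a median of -0.01, 2 and 1 between quantile-normalized samples, and 4 and 0 in the median-centred sample channel. S100a14, an S100 protein of epithelia, rose by 2.50 ± 0.07 (adjusted p = 1.64e-06, limma), and S100g, a calcium-binding protein of epithelial transport, rose by 0.55. S100a16 differed by -0.31 in the ratios and by 0.16 with no call in the median-centred sample channel (adjusted p = 0.238), and S100a9, a neutrophil protein, differed by -1.05 ± 0.31 (adjusted p = 0.0338) in the ratios and by -0.87 between quantile-normalized samples (adjusted p = 0.0502). Of 12 lymphocyte markers, 6 were called lower in the ratios and 1 between quantile-normalized samples, and their summed intensities overlapped, at 7.08 to 9.63 in WT and 7.19 to 8.85 in TGFb1-Tg.

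**Figure D4:**
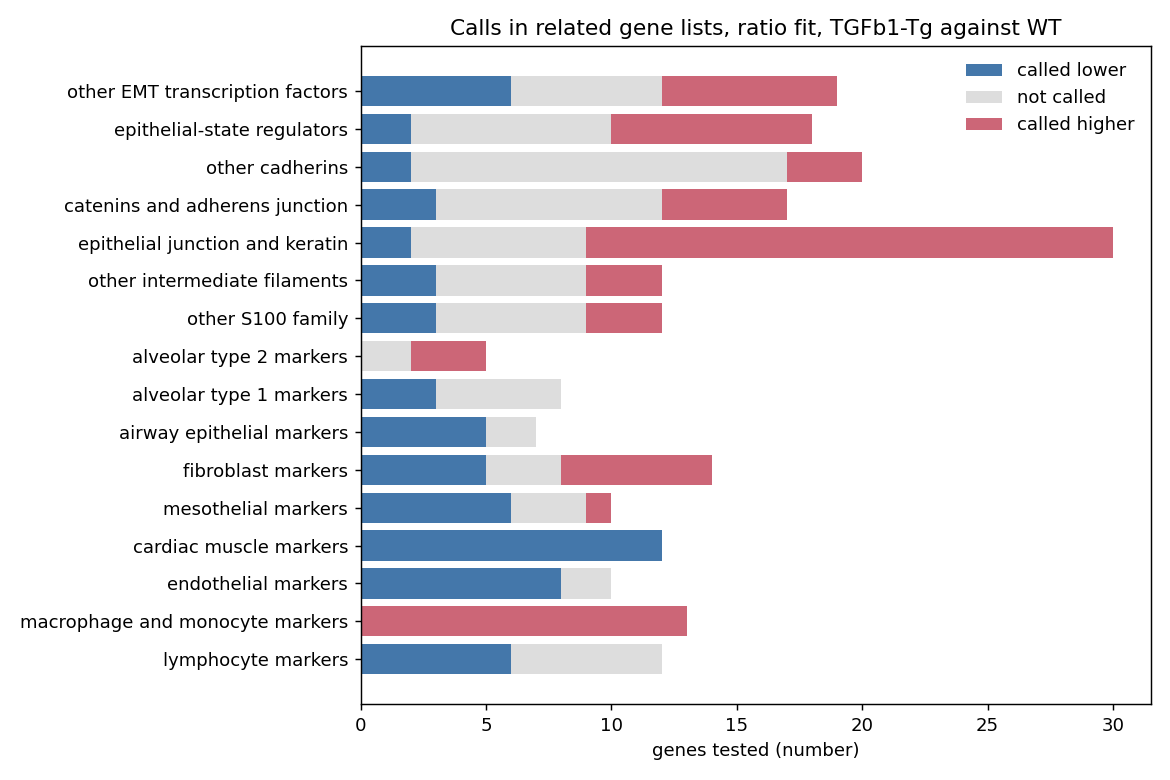
Number of genes tested in each related gene list (x axis), split into genes called lower, not called and called higher in TGFb1-Tg against WT by the ratio fit at an adjusted p under 0.05. The epithelial junction and keratin list holds 21 called higher of 30, all 13 macrophage and monocyte markers are called higher, and all 12 cardiac muscle markers are called lower.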

How the data were processed

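Lung RNA of 4 WT and 4 TGFb1-Tg mice was measured on 2-colour arrays; per the labels' protocols, Trizol RNA (100 ng) was amplified in a pair of rounds. The authors deposited an intensity per channel, on a linear scale in steps of 0.01, and a p-value per probe. The deposited value table holds log10 ratios of sample over pool: at least 99.99% matched the intensities within 0.002, with a median of 0 on every array and 2 probes absent. Agilent Feature Extraction 8.5.1.1 made the values, per the submitters' processing notes; the sources used here do not give its background correction or dye normalization. Between 39039 and 39281 probes were measured per array. Depth does not apply to arrays, and their number limits the precision: the median SE was 0.0555.

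From the deposited intensity values, log2(sample / pool) was averaged over the probes of a gene and tested by linear models with limma 3.58.1 (lmFit, eBayes) under R 4.3.3 (two-sided, at least 2 values per group, Benjamini-Hochberg over 25647 genes; 87 were not tested). Python 3.11.15, pandas 2.3.3 and matplotlib 3.10.9 were used. Probes were named through accession (6967), current symbol (16544), updated symbol (2555) or the symbol in the table (3984 and the 13 probes above); 9278 had no gene. Named genes are all members, up to 2 called genes with the largest rise and 2 with the largest fall per list, and the 3 genes most like the member with the largest rise and that with the largest fall. Members and lists were chosen with earlier results of these data known.

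On simulated data (25303 genes), the fit recovered 71.2% of 80 genes shifted by a log2 difference of 0.5. It recovered 86.2% of 80 shifted by 1 and 95% of 40 shifted by 2, and made 15 false calls. The simulation shifted a far smaller share of genes than the 38.8% called in the data. It also had equal spread in both groups and no shared pool, so these rates do not carry over to the real fit. The labels number replicates 1 to 4 in both groups, but same-numbered arrays did not deviate together (r = 0.012, -0.012, 0.043 and 0.001), so the numbers were not taken as pairs. The p-values measure the spread between the labelled replicates. By the headers each set of arrays shared a pool, so p-values of the ratio fit hold no spread between pools. The pool enters every ratio, and under the headers the WT ratios share a pool of the same lungs. Nothing given here says whether slides or scan runs differed between the groups, so an array batch and the group cannot be told apart.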

Additional observations from a re-analysis of the deposited data

How the results depend on the processing

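Called counts depended most on scaling. All 9 members kept their side of the threshold with the value table, a floor of 0.05, trend and robust fitting, and each single array left out, which gave 4277 to 4570 genes higher and 4497 to 4821 lower, with 5 members higher and 2 lower each time. Only the uncalled Snai1 and Zeb2 changed sign among these, within -0.02 to 0.15 and -0.04 to 0.03. The replicate block gave 4391 and 4546 genes, with the same 5 and 2 members called. Quantile normalization of the ratios left 1602 genes higher (6.25%) and 1478 lower (5.76%), and 1 member each way, Epcam and Zeb1. Twist1 was 0.24 and Cdh2 -0.45 there. That scaling gives every array the same spread, although ratios spread more widely on TGFb1-Tg arrays than on WT arrays. A call lost there does not by itself show a weak difference. The sample channel alone gave 9049 genes and 6 members higher, and 0 members lower. Chosen after seeing the data, its quantile normalization left 1 member lower, and leaving out WT replicate 1 from the median-centred channel gave 9385 genes higher and 0 members lower. Zeb2 turned from -0.01 to 0.40, and to 0.41 without WT replicate 1. Twist1 was not tested where dim probes were left out. Of the counts of called genes per list over all settings, 477 lay within 1.5 times the first count and 99 did not. The cause was not tested. Dim probes, rounded to 0.01, limit Twist1 and the second Cdh2 probe, and the bright end limits Vim and Cdh1.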
